A study of Homo sapiens with 6 samples.

Results

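The IQGAP scaffold family has 3 members in the human genome, IQGAP1, IQGAP2 and IQGAP3, and all 3 were found by symbol among the 27942 genes of the deposited table. The family was chosen by its RNA-Seq counts in treated and untreated cells, with earlier results of that comparison known. Its differences between the groups are therefore given as a description, without a p-value. The cells were HCT116, an established human colorectal carcinoma line with wild-type p53, collected after 24 h. Triplicates were exposed to 0.5 µM oxaliplatin (OXA), a platinum compound that forms DNA adducts, or left non-treated (NT). Both groups consist of cultures of the same line, so 1 genetic background was examined. Nothing in the labels says whether the libraries of a group came from separate cultures, and the spread between them may be technical.

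IQGAP proteins are large scaffolds that link small GTPases to the cytoskeleton and to signaling kinases. A calponin homology domain binds actin filaments, IQ motifs bind calmodulin and myosin light chain, and a domain related to RasGAP proteins binds CDC42 and RAC1 without activating their GTPase. IQGAP1 is broadly expressed and is known from cell junctions, migration and the ERK cascade, IQGAP2 is best known from liver, where it has been described as a tumor suppressor, and IQGAP3 is known from proliferating epithelial cells.

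The libraries held between 32979521 and 40967880 counts. Of the 8 colon epithelial markers looked up, EPCAM was at 9963 normalized counts on average in NT, KRT8 at 39182, KRT18 at 30144, CDH1 at 4041 and CDX2 at 483, KRT20 and VIL1 were low at 46.1 and 79.2, and LGR5 had at most 3 raw counts in any library. The 8 markers of blood, endothelial, stromal and liver cells summed to 7.71 to 14.5 CPM (counts in 1000000 counts of the library) in NT and 10.8 to 13.9 in OXA, with CD68 and COL1A1 the only members that passed the filter on low counts. The liver gene ALB had 0 to 4 counts. Within groups, NT library 1 differed most from the others, with a chi-square per gene of 83.6 and 76.1 against NT libraries 2 and 3, where the other pairs within a group lay between 19.3 and 29.6, so that no library was a repeat of another.

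IQGAP1 (ENSG00000140575) lies on the plus strand of chromosome 15 of GRCh38 from 90388242 to 90502239, with 38 exons in its canonical transcript. IQGAP2 (ENSG00000145703) spans 305 kb of the plus strand of chromosome 5 from 76403285 to 76708132, with 36 exons. IQGAP3 (ENSG00000183856) is the most compact, on the minus strand of chromosome 1 from 156525405 to 156572604, with 38 exons. The span of IQGAP2 also contains F2RL2, a thrombin receptor family gene on the opposite strand whose exons overlap those of IQGAP2. F2RL2 was at 7, 5 and 10 raw counts across the NT libraries and at 10, 13 and 12 across the OXA libraries, far fewer than IQGAP2 in each of them. Because the strand setting of the counting is not given, reads of the overlapping exons cannot be assigned to 1 of the genes with certainty.

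Whether the promoters of the members bear on the difference in IQGAP2 between the groups was not tested. The 250 bases upstream of the canonical start sites are shown as a description, since each gene has a promoter of its own. They were taken from RefSeq (GRCh38.p14), 5′ to 3′ on the strand of the gene, at chr15:90387992-90388241 (plus), chr5:76403035-76403284 (plus) and chr1:156572566-156572815 (minus). Capitals mark matches to the letters searched on both strands, TTTGAA and TTCGAA (cell cycle homology region), GCGGGAA (E2F), CCAAT and TATAAA.
IQGAP1: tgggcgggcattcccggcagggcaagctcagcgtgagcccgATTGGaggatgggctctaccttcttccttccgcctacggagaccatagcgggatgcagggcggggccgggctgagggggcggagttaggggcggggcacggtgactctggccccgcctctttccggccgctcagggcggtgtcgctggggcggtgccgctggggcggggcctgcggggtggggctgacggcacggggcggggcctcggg
IQGAP2: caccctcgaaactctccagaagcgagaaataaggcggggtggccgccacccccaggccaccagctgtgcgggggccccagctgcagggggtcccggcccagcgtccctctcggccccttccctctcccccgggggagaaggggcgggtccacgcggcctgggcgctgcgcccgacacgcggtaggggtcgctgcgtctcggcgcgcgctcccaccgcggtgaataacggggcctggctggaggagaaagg
IQGAP3: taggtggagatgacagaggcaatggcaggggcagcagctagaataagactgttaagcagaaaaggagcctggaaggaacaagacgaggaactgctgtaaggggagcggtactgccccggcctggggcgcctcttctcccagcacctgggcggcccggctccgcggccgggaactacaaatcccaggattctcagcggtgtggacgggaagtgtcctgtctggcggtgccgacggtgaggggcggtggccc

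The window searched reached from 250 bases before to 50 bases after each start site. For IQGAP1 the single match was CCAAT on the reverse strand, at position -209 from the start. IQGAP2 had no match at its canonical start. IQGAP3 had TTTGAA on the reverse strand, 12 bases after the start. Among 35116 promoters of the same length, TTTGAA was present in 15.2%, TTCGAA in 1.45%, GCGGGAA in 6.55%, CCAAT in 34.6% and TATAAA in 11.5%. The GC content of the window was 74.0% for IQGAP1, 73.7% for IQGAP2 and 61.7% for IQGAP3, against a median of 58.7% over all promoters. RefSeq gives IQGAP2 2 further start sites inside the gene, at 76547409 and 76609111, with a GC content of 40.0% and 41.3%. The first of these had no match, and the second had TTTGAA on the reverse strand at position -124 and overlapping matches to TATAAA at -102 (reverse strand) and -100 (forward strand). The deposited counts are sums per gene and do not separate these starts.

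IQGAP2 mRNA was lower in OXA. Its raw counts were 602, 527 and 674 in NT libraries 1 to 3 and 202, 197 and 263 in OXA libraries 1 to 3. After TMM normalization, which sets 1 scaling factor per library, the values were 615, 548 and 615 in NT and 219, 215 and 234 in OXA. The groups did not overlap, and the lowest NT library was 2.34-fold above the highest OXA library. The means were 593 ± 39.0 normalized counts (SD, n = 3) in NT and 223 ± 10.4 in OXA, a log2 fold change of -1.41 with a standard error of 0.12, or 2.66-fold lower. Counting error alone amounts to 3.85% to 4.36% of a library's IQGAP2 count in NT and to 6.17% to 7.12% in OXA. The SD between libraries was 6.58% of the mean in NT, above the counting error, and 4.66% in OXA, below it. In bulk RNA, fewer cells with the transcript and less of it in each cell cannot be told apart.

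IQGAP1 mRNA showed no such difference. Its normalized counts were 18130, 15698 and 16646 in NT and 16534, 14458 and 16313 in OXA. The groups overlapped, with OXA library 1 and OXA library 3 above NT library 2. The means were 16824 ± 1226 in NT and 15768 ± 1140 in OXA (n = 3), a log2 fold change of -0.094 with a standard error of 0.096. Counting error was at most 0.868% here, and the spread between libraries, 7.29% in NT and 7.23% in OXA, was several times that.

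IQGAP3 had 1228, 1732 and 1676 normalized counts in NT and 1378, 1506 and 1431 in OXA. All 3 OXA libraries lay between NT library 1, which was the lowest of the 6, and NT libraries 2 and 3, which were the highest. The means were 1545 ± 276 in NT and 1438 ± 64.0 in OXA (n = 3), a log2 fold change of -0.10 with a standard error of 0.14. Without NT library 1, the library that stood apart over all genes, the log2 fold change was -0.24, and IQGAP3 was still not called.

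**Figure D1:**
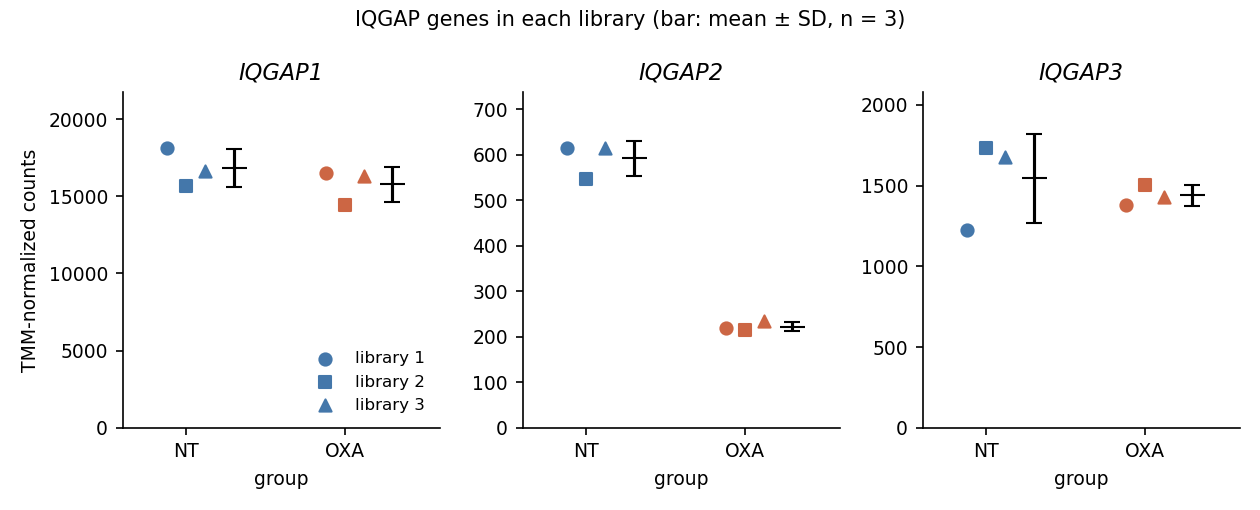
TMM-normalized counts (vertical axes, each from 0) of the 3 IQGAP genes in NT and OXA, with 1 point per library, its shape giving the library number, and the mean ± SD of 3 libraries as a bar beside them. IQGAP2 lies between 548 and 615 in NT and between 215 and 234 in OXA, whereas the groups overlap for IQGAP1 and IQGAP3.

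In the comparison of OXA with NT over 13727 genes by edgeR's quasi-likelihood test, where genes with an adjusted p-value below 0.05 are called, IQGAP2 was called and IQGAP1 and IQGAP3 were not. Over all genes 5.07% were called, 2.78% as higher and 2.29% as lower. Groups that do not overlap, as in IQGAP2, were found in 28.9% of all genes tested. Only 24 of the 13727 genes had a lower log2 fold change than IQGAP2. These shares describe where the members lie and are no evidence about the family, since it was picked with this contrast in view.

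Libraries of the same number were also compared as pairs. IQGAP2 was 2.82-fold, 2.55-fold and 2.62-fold higher in NT than in OXA in pairs 1, 2 and 3, so that every pair gave nearly the same difference. For IQGAP1 the ratios were 1.10, 1.09 and 1.02. For IQGAP3 they were 0.891, 1.15 and 1.17, with pair 1 in the other direction. When the fit took the replicate number as a block, the log2 fold changes were -0.094 for IQGAP1, -1.41 for IQGAP2 and -0.090 for IQGAP3, and IQGAP2 alone was called, as without it.

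**Figure D2:**
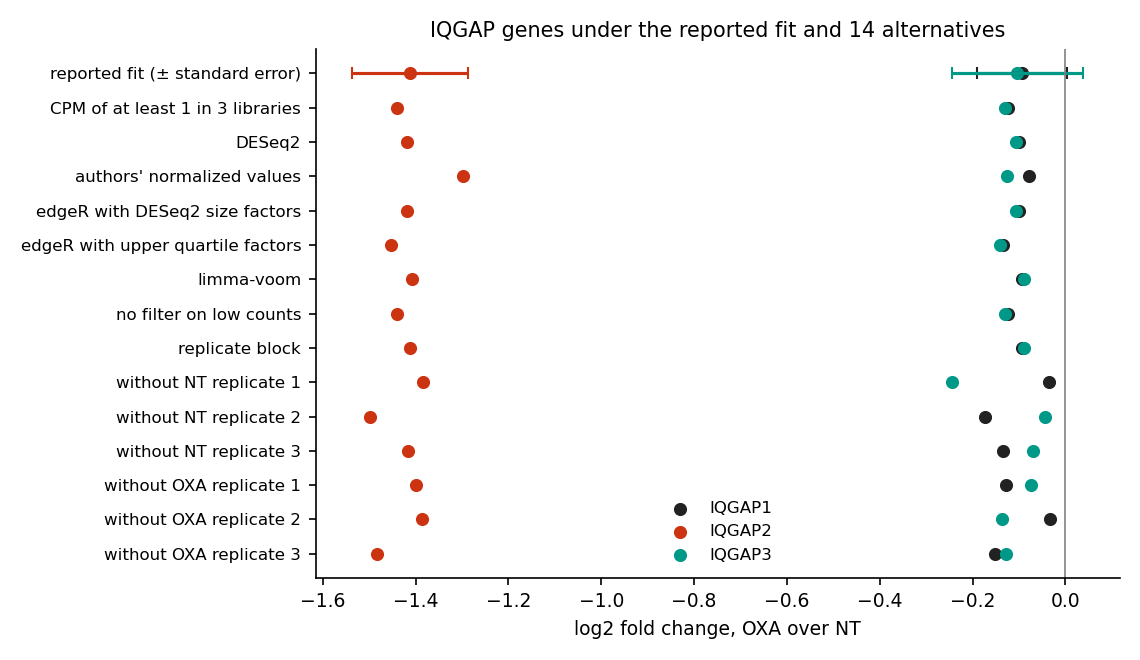
Log2 fold change of OXA over NT (horizontal axis) of the 3 IQGAP genes in the reported fit, with its standard error as a bar, and in 14 other fits (rows). IQGAP2 stays between -1.50 and -1.30, IQGAP1 between -0.17 and -0.034 and IQGAP3 between -0.24 and -0.043.

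Levels of different genes were compared per length, as counts per kilobase of annotated exon and per 1000000 counts of the library. IQGAP1 was the major member, at 44.2, 38.6 and 40.7 in NT and 38.8, 34.9 and 38.8 in OXA. IQGAP3 followed, at 5.11, 7.27 and 7.00 in NT and 5.53, 6.21 and 5.81 in OXA. IQGAP2 was the lowest, at 1.70, 1.52 and 1.71 in NT and 0.581, 0.588 and 0.632 in OXA. This order held in each of the 6 libraries, and the ranges of neighboring genes did not overlap. Among 13675 genes tested that have an annotated length, 931 had a higher level than IQGAP1 in NT and 1052 in OXA. For IQGAP3, 5524 genes were higher in NT and 5855 in OXA. For IQGAP2 the number went from 9630 to 11350, and the gene thus moved from percentile 29.6 to percentile 17.0 of the level.

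**Figure D3:**
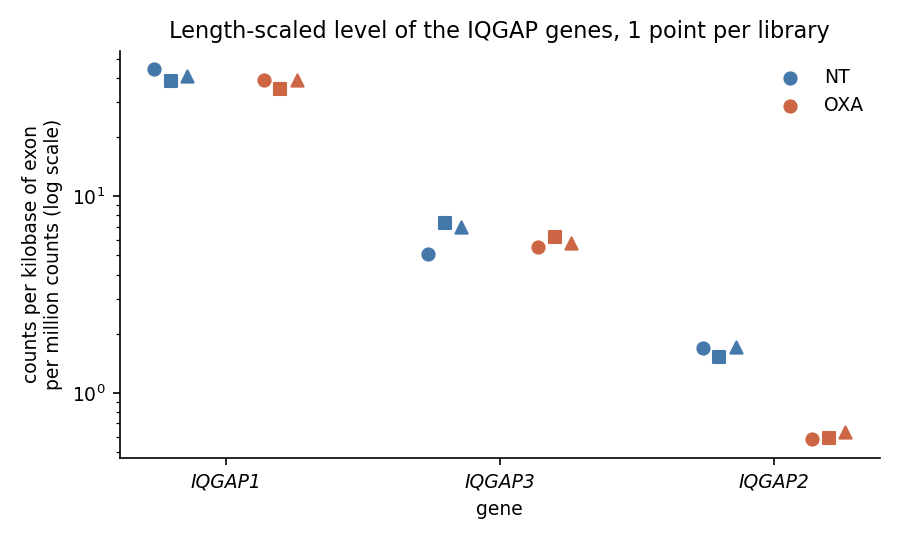
Length-scaled level (vertical log axis, counts per kilobase of exon and 1000000 counts) of the 3 genes, 1 point per library, colored by group. IQGAP1 lies between 34.9 and 44.2, IQGAP3 between 5.11 and 7.27, and IQGAP2 splits into NT at 1.52 to 1.71 and OXA at 0.581 to 0.632.

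Ratios between members within a library need no scaling between libraries. IQGAP1 exceeded IQGAP2 26.0-fold, 25.3-fold and 23.9-fold per length in NT, and 66.8-fold, 59.4-fold and 61.5-fold in OXA. IQGAP3 exceeded IQGAP2 3.01-fold to 4.77-fold in NT and 9.20-fold to 10.6-fold in OXA. Both ratios were thus higher in every OXA library than in any NT library. The ratio of IQGAP1 to IQGAP3 overlapped between the groups, at 5.31 to 8.65 in NT and 5.63 to 7.03 in OXA. Of the length-scaled family total, IQGAP2 made up 3.33% ± 0.12 (SD, n = 3) in NT and 1.37% ± 0.063 in OXA. IQGAP1 made up 83.5% ± 2.77 and 85.3% ± 1.41, and IQGAP3 13.2% ± 2.80 and 13.3% ± 1.36. The family total was dominated by IQGAP1 in both groups, and the lower IQGAP2 level changed it little.

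The authors also deposited normalized values, which are the counts multiplied by a factor that differs between genes and libraries. This factor ran from 0.713 to 1.13 for IQGAP1, from 0.811 to 1.16 for IQGAP2 and from 0.904 to 1.07 for IQGAP3. On these values IQGAP2 was at 534 ± 63.4 in NT and 216 ± 15.5 in OXA (n = 3), again without overlap. IQGAP1 was at 15784 ± 2554 and 14934 ± 2180, and IQGAP3 at 1566 ± 254 and 1422 ± 50.2, both with overlapping groups. The values differ from those above by the scaling only, and the difference in IQGAP2 did not rest on it.

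The proteins that IQGAPs bind were examined through a list of 50 genes, written from general knowledge with earlier results of these data known. Of these, 49 passed the filter on low counts, the exception being S100P. By edgeR's adjusted p-value, 3 were called higher (6.12% of the 49, where 5.07% of all genes were called) and 0 lower. The median log2 fold change of the list was 0.013, against 0.023 over all genes. An unadjusted p-value under 0.05 was found for 10 of the 49, where 21.7% of all genes had one. By these counts and the median, the list as a whole was close to the background.

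EZR encodes ezrin, which links the actin cortex to the membrane, and had 49838, 57625 and 50340 normalized counts in NT and 83949, 87590 and 81668 in OXA (0.68 ± 0.094 on the log2 scale, estimate ± standard error, and adjusted p = 0.00987 by edgeR). MYL6, which encodes an essential myosin light chain, had 11058, 11677 and 12003 in NT and 16054, 15081 and 15326 in OXA (0.42 ± 0.080 on the log2 scale, estimate ± standard error, and adjusted p = 0.0293 by edgeR). The chemokine receptor gene CXCR2 was near the detection limit, with raw counts of 0, 2 and 4 for NT and of 24, 16 and 19 for OXA (adjusted p = 0.0302 by edgeR). The groups did not overlap in any of the 3 genes, with OXA above NT. Groups without overlap, in either direction, were found in 17 of the 49 partners tested and in 28.9% of all genes tested. The calls varied with the libraries in the fit, as did those over all genes (381 called higher in the reported fit). Without NT library 2 EZR alone was called, and 153 of all genes were called higher. Without NT library 3 or any 1 OXA library 0 of the 3 were called, and 66 to 115 of all genes higher. With 1 library left out, log2 fold changes were 0.62 to 0.72 for EZR, 0.39 to 0.44 for MYL6 and 2.73 to 4.09 for CXCR2.

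The direct GTPase ligands of the family showed small differences. CDC42 had 13013 normalized counts on average in NT and 14110 in OXA (0.12 ± 0.11 on the log2 scale, estimate ± standard error, and adjusted p = 0.579 by edgeR), and RAC1 had 13306 and 12361 (-0.11 ± 0.093 on the log2 scale, estimate ± standard error, and adjusted p = 0.565 by edgeR). The calmodulin genes CALM2 and CALM3 had log2 fold changes of 0.059 and -0.084, and the actin genes ACTB and ACTG1 of 0.32 and -0.022, none of them called. In the groups of small GTPases (7 genes), actin and its nucleators (4), adherens junction (4), microtubule plus ends (4), RAF-MEK-ERK (6) and PI3K-AKT (7), 0 genes were called. Over all genes 5.07% were called, so 0 calls in groups this small says little about them. CTNNB1, which encodes β-catenin, had a log2 fold change of -0.039, and BRAF of -0.18.

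With the replicate number as a block, 13 of the 49 partners were called, 7 higher and 6 lower (26.5%, where this fit called 23.0% of all genes). Additional genes, chosen after their values were seen, were RHOC, ACTB, MYL6B and MAP2K1 among the higher ones (log2 fold changes in the unblocked fit 0.60, 0.32, 0.45 and 0.21). LGR4, WASL, PIK3CA and CDH1 were among the lower ones, at -0.48, -0.23, -0.26 and -0.20. The higher ones named are GTPase, actin, light chain and kinase genes, and the lower ones are receptor, actin, kinase and junction genes.

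IQGAP1 and IQGAP3 take part in cytokinesis, and 17 genes of this process were looked up as a second list. All 17 were tested, 14 had a log2 fold change under 0, and the median was -0.30, against 0.023 over all genes. Of the 17, 1 was called lower (5.88%, with 2.29% of all genes called lower) and 0 higher, and 10 had an unadjusted p-value under 0.05 (21.7% of all genes did). The called gene, RACGAP1, encodes a subunit of the centralspindlin complex at the spindle midzone. It had 9091, 7687 and 8208 normalized counts in NT and 6066, 5360 and 6431 in OXA (-0.48 ± 0.11 on the log2 scale, estimate ± standard error, and adjusted p = 0.0435 by edgeR), without overlap. Among the 6 fits without 1 library, RACGAP1 was called only in that without NT library 1, where 571 of all genes were called lower. In the others, 19 to 146 of all genes were called lower. The log2 fold change of RACGAP1 lay between -0.58 and -0.41 in these 6 fits. With the replicate block, 9 of the 17 were called lower and 1 higher (10.9% of all genes were called lower in that fit). The lower ones, chosen after their values were seen, were RACGAP1, CDCA8, BIRC5, CEP55, ANLN, CIT, PRC1, KIF23 and KIF20A, with log2 fold changes in the unblocked fit from -0.48 to -0.28, and the higher one was SEPTIN9, at 0.51. IQGAP3 lay above most of these genes, at -0.10.

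The other genes with a RasGAP domain were set beside the family because they share this domain. Of 10, 9 passed the filter, the exception being RASAL3, and 0 were called by edgeR in either direction (1 had an unadjusted p-value under 0.05, where 21.7% of all genes had one, and 1 was called higher by DESeq2, which called 4.92% of all genes higher). The 3 with the smallest p were RASAL1, RASA2 and RASAL2. RASAL1 had 302 normalized counts on average in NT and 479 in OXA (0.66 ± 0.19 on the log2 scale, estimate ± standard error, and adjusted p = 0.0968 by edgeR) and was called with the replicate block. RASA2 had a log2 fold change of -0.24 and RASAL2 of -0.069. The lowest log2 fold change among the 9 was that of RASA2. Only 24 of the 13727 genes tested lay below IQGAP2, which was chosen with this contrast known. Setting IQGAP2 beside the 9 therefore says nothing about the domain.

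**Figure D4:**
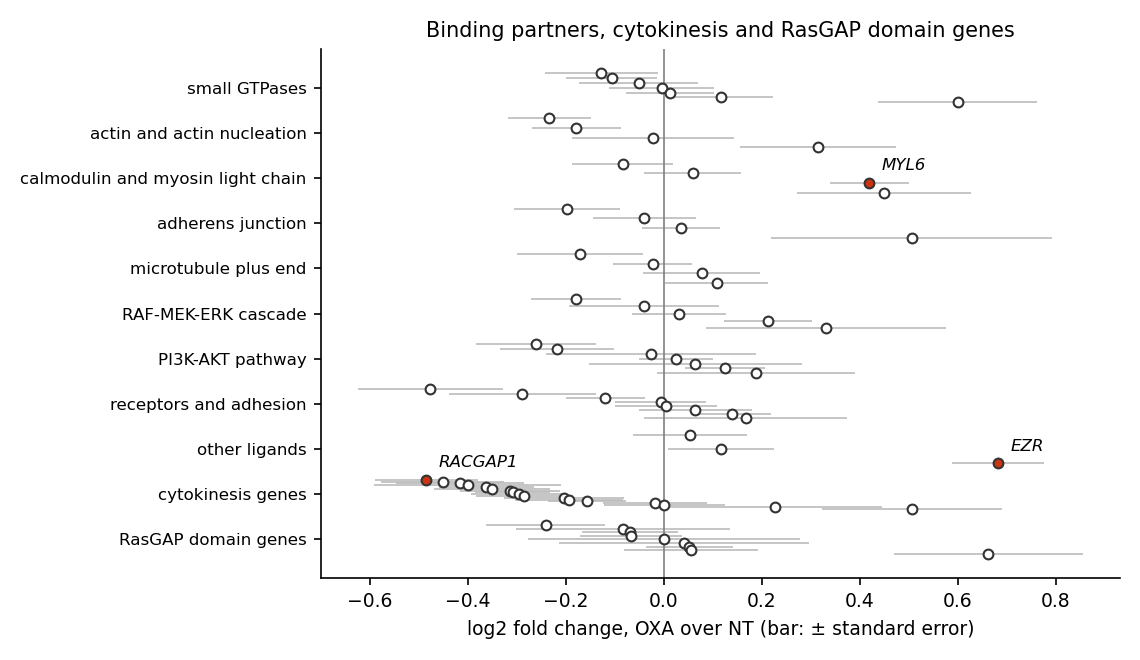
Log2 fold change of OXA over NT (horizontal axis, bars ± standard error) of binding partners by group and of the cytokinesis and RasGAP domain genes (rows), 1 point per gene. Filled points have an edgeR adjusted p under 0.05 and are EZR, MYL6 and RACGAP1, and CXCR2, with its low counts, and genes not reported here are left out.

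The genes whose log2 CPM followed each member most closely over the 6 libraries were ranked by Pearson's r among 12066 genes with a mean of at least 50 normalized counts. These values are a description, since with 6 libraries the treatment and the library number set much of the pattern. For IQGAP2 they were ZNF225, CLYBL, TMSB15A, ZNF704 and MCM4 (r between 0.996 and 0.998). Of these, TMSB15A, which encodes a thymosin that binds actin monomers, had the log2 fold change nearest to that of IQGAP2, at -1.37. Its normalized counts were 542 on average in NT and 210.2 in OXA. MCM4, a subunit of the replicative helicase, went from 18217 to 10297 (log2 fold change -0.82), and the zinc finger gene ZNF704 from 3895 to 1797 (log2 fold change -1.12). For IQGAP1 they were RICTOR, REST, YTHDF3, POLE3 and GFPT1 (r between 0.995 and 0.997), with log2 fold changes between -0.16 and -0.085. For IQGAP3 they were WDTC1, B4GALNT3, MAD2L2, FIBCD1 and CTDSP1 (r between 0.995 and 0.998), with log2 fold changes between -0.49 and -0.15. The lists of the 3 members share no gene.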

How the data were processed

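RNA of 6 HCT116 samples was sequenced by the authors as stranded libraries of polyadenylated RNA. Per the labels, the submitters' processing notes name Trimmomatic 0.32, STAR 2.7.5b, RSEM 1.3.3 and DESeq2 2.13 and the build GRCh38. The annotation and the strand setting of the counting are not given in the sources used here. The authors deposited whole-number counts per gene, used here, and a normalized signal, used for an alternative only.

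Groups and replicate numbers came from the sample titles. Genes were filtered with filterByExpr (minimum count 10, minimum total 15), scaled by TMM and tested by edgeR's quasi-likelihood test over 13727 genes with Benjamini-Hochberg adjustment (R 4.3.3 with edgeR 4.0.16; limma 3.58.1 and DESeq2 1.42.0 served the alternatives). Standard errors were the log2 fold change over the root of the F statistic. The steps were tested on simulated data. Positions and lengths (union of exons) came from GENCODE release 44. Of the listed genes all were found by gene identifier.

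Members and lists were chosen with earlier results of these data known. Genes named are the members, list genes with an adjusted p under 0.05 (otherwise the 3 with the smallest p), the 5 genes most correlated with each member, and genes overlapping a member. Others are said to be chosen after their values were seen, or are given as ligands, paralogs or markers by role. Some listed genes are not reported here.

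Deviations of same-numbered NT and OXA libraries from their group means correlated at 0.55, 0.54 and 0.31, over the limit of 0.1, so the block is given where it changes a call. The numbers come from the titles, which do not say what they stand for. Counting errors given here leave out PCR duplication.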

Additional observations from a re-analysis of the deposited data

How the results depend on the processing

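IQGAP2 was lower and called in all 14 alternatives, and IQGAP1 and IQGAP3 were below 0 and not called in all 14. These fits reuse the libraries whose comparison was known when the family was chosen. They show only how far the values depend on the processing and are no further evidence about the members. IQGAP2 moved by more than the spread between libraries with the authors' normalized values (log2 fold change -1.30) and without NT library 2 (-1.50). With 1 library left out, its log2 fold change ranged from -1.50 to -1.38. The replicate block changed no call of the 3 members.

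The number of all genes called, 381 higher and 315 lower, varied more. It was 636 and 635 with DESeq2, 236 and 187 with the authors' normalized values, 1664 and 1493 with the replicate block, and 66 to 623 higher and 19 to 571 lower with 1 library left out (lowest without OXA library 1, highest without NT library 1). Lower calls were 479 with at least 1 CPM in 3 libraries and 493 with upper quartile factors. Of the binding partners, 7 were higher and 6 lower with the replicate block, and 0 to 4 higher and 0 to 1 lower with 1 library left out (most without NT library 1). Of the cytokinesis genes, 2 were lower with the CPM filter, 4 with DESeq2, 3 with upper quartile factors, 9 (and 1 higher) with the replicate block, and 0 to 3 with 1 library left out. Of the RasGAP domain genes, 1 was higher with DESeq2 and 1 with the replicate block. The cause of these shifts was not tested.

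With the longest transcript as the length, the NT level was 65.8 for IQGAP1 and 2.87 for IQGAP2, and the OXA shares were 88.7%, 1.56% and 9.74% for IQGAP1, IQGAP2 and IQGAP3. With the authors' normalized values the NT levels were 38.3 for IQGAP1 and 1.47 for IQGAP2. The order of the 3 genes held in each library under both. What size of difference 3 libraries a group can show was not tested for IQGAP1 and IQGAP3.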
